A study of Mus musculus with 6 samples.

Results

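The 7 genes described here encode proteins that hold back signalling by SMAD transcription factors inside the cell: the corepressors Tgif1, Tgif2, Ski and Skil, the ubiquitin ligases Smurf1 and Smurf2, and the membrane protein Pmepa1. They were found by symbol, and all 7 of 7 were among the 49315 genes listed and among the 14818 genes tested. They were picked by function with earlier results of the R206H against wild-type comparison known, so their values in that comparison are given as a description. The RNA came from fibroblasts grown out of mouse embryos at E13.5, cultures that are mesenchymal but mixed. The 3 R206H libraries came from cells heterozygous for the Acvr1 R206H allele (Acvr1R206H/+), and the 3 wild-type libraries from Acvr1+/+ cells. Cells of both genotypes were at passage 0, had grown for 2 days with fetal bovine serum, and received no other listed treatment. The R206H change in this receptor for bone morphogenetic proteins (BMPs) causes most cases of fibrodysplasia ossificans progressiva (FOP), where muscle and connective tissue turn to bone. No Cre or tissue-specific promoter is named for the allele, and the labels do not say whether each library came from a separate embryo, so p-values measure the spread between these libraries.

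BMPs and transforming growth factor beta (TGF-beta) activate receptor kinases that phosphorylate SMADs, which enter the nucleus with Smad4 and switch genes on or off. Several brakes act on this route: Ski and Skil (SnoN) bind SMADs and recruit histone deacetylase complexes, Tgif1 and Tgif2 are homeodomain proteins that do the same through other contacts, Smurf1 and Smurf2 mark SMADs and, carried by inhibitory SMADs, receptors for degradation, and Pmepa1 keeps SMADs away from the receptor and is itself a TGF-beta target. Some of these brakes, Skil and Pmepa1 among them, are induced by the signal they restrain.

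Estimated depth was 17800000 to 21700000 reads in R206H and 17500000 to 24600000 in wild-type libraries. Levels are TPM (transcripts per 1000000), which are per length, and changes are differences of log2(TPM + 1), R206H minus wild type, from limma, with n = 3 per genotype throughout. Acvr1 itself had 43.9, 47.3 and 42.0 TPM in R206H libraries 1, 2 and 3, against 35.7, 34.6 and 33.7 in wild type, a level that cannot check a point mutation. Fibroblast markers were abundant in every library, with 12 of 12 tested and none past the threshold. They summed to 9129 to 11769 TPM in R206H libraries and to 5813 to 7619 TPM in wild-type libraries. Of these sums, Col1a1 alone had a mean of 4881 TPM in R206H and 2214 TPM in wild type. The summed level of 11 epithelial markers was 178 to 368 TPM in R206H and 513 to 555 in wild type, and Esrp1 and Grhl2 were under 1 TPM in all libraries. Neuronal markers (7) summed to 79.6 to 99.8 TPM in R206H and 38.3 to 51.0 TPM in wild type, with 2 of 4 tested higher past the threshold, and Dcx, Elavl3 and Snap25 were under 1 TPM throughout. Neural crest and glial markers (6) summed to 20.9 to 30.2 TPM in R206H and 43.5 to 52.2 TPM in wild type, with 2 of 5 tested lower past the threshold. Of 5 mesothelial markers 1 was lower, with sums of 45.5 to 142.7 TPM in R206H and 129 to 169 TPM in wild type. The summed endothelial, macrophage and skeletal muscle markers overlapped between the genotypes, and none of their genes passed. The mitochondrial genome gave 3.43% to 3.85% of the summed level in R206H libraries and 4.16% to 4.57% in wild-type libraries. R206H library 3 lay farthest out on the first principal component, at 39.5 against 7.24 and 20.7 for R206H libraries 1 and 2, and wild-type library 1 lay apart on the second. The part of these differences in the results below was not tested, and in bulk RNA fewer cells of a type and less RNA per cell cannot be told apart.

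In R206H fibroblasts Tgif1 and both Smurf genes had lower levels in every library than any wild-type library, and Ski and Pmepa1 had higher levels in every library. Tgif2 and Skil overlapped between the genotypes. The groups therefore did not overlap for 5 of 7 genes, 3 lower and 2 higher, beside 32.9% of all genes tested (2221 lower and 2652 higher). Only Tgif1 passed a Benjamini-Hochberg adjusted limma p of 0.05 over all genes, 1 of 7 beside 2.04% of all genes tested, and nothing is read from these counts because the genes were chosen with this comparison known. The sizes were modest, with ratios of mean TPM from 0.758 to 1.27. The median log2 change of the 7 genes was -0.09, against 0.02 over all genes tested.

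**Figure D1:**
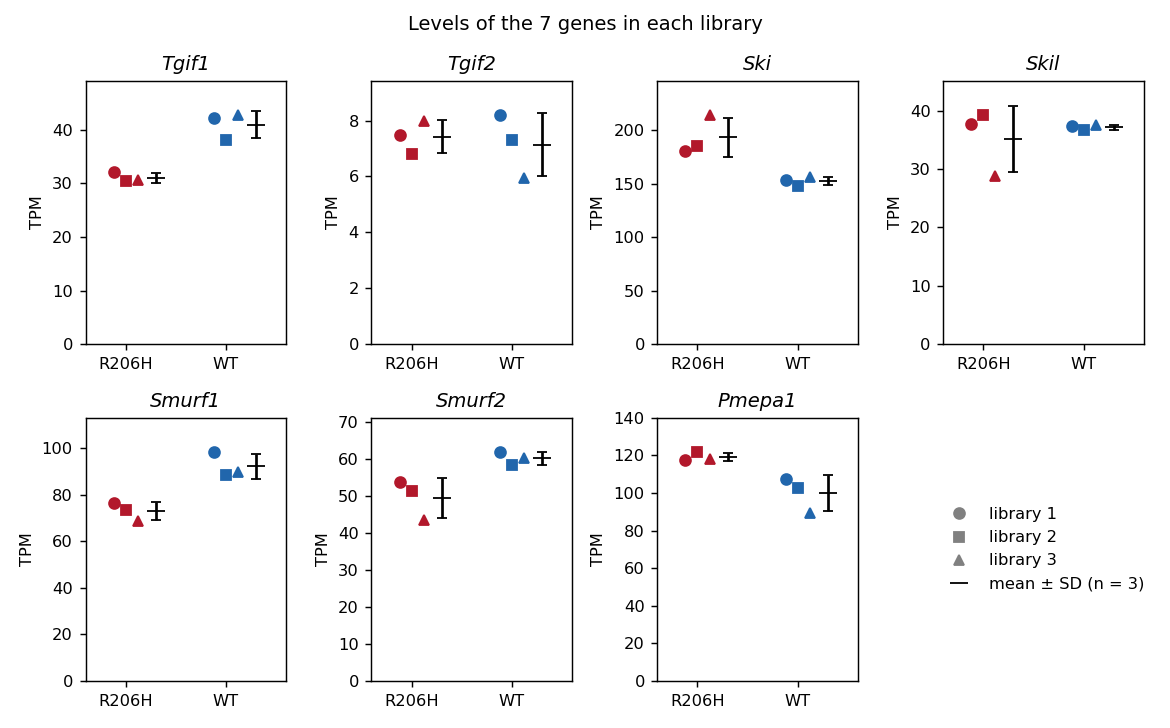
TPM of each gene (vertical axes, from 0) in R206H and WT libraries. Symbols mark libraries 1, 2 and 3, and bars show mean ± SD (n = 3). All R206H points lie below all WT points for Tgif1, Smurf1 and Smurf2 and above them for Ski and Pmepa1, while Tgif2 and Skil overlap.

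Tgif1, a homeodomain corepressor that also opposes retinoid signalling and is a holoprosencephaly gene in humans (ENSMUSG00000047407, GRCm38 chromosome 17, 70844205 to 70853546, minus strand), had 32.1, 30.5 and 30.6 TPM in R206H libraries 1, 2 and 3. In wild-type libraries 1, 2 and 3 it had 42.2, 38.0 and 42.7 TPM. The lowest wild-type library was 5.93 TPM above the highest R206H library, and the R206H values lay close together, with a coefficient of variation of 2.86% against 6.31% in wild type. Its mean fell by 24.2%, to 31.0 ± 0.889 TPM in R206H against 41.0 ± 2.59 in wild type (SD), a log2 change of -0.39 (SE 0.0697). Of all genes tested, 80.2% had a smaller change in either direction. Tgif1 stayed past the threshold in 7 of 17 alternative fits. It did not pass without any one of wild-type libraries 1, 2 and 3 or R206H libraries 2 and 3, although its log2 change then stayed between -0.44 and -0.36, and with R206H library 1 left out it was -0.41 and passed.

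Tgif2, its closest relative (ENSMUSG00000062175, chromosome 2, 156840007 to 156855570, plus strand), was the weakest of the 7. It had 7.50, 6.79 and 7.99 TPM in R206H libraries 1, 2 and 3 and 8.19, 7.29 and 5.96 TPM in wild-type libraries. The groups overlapped, the means were 7.42 ± 0.600 TPM in R206H and 7.14 ± 1.12 in wild type (SD), and the log2 change of 0.06 (SE 0.137) was smaller than its error. It took the sign -0.05 without wild-type library 3. With only 124 to 189 reads per library, counting alone gives an error of 7.27% to 8.98%, so a difference of the size of that in Tgif1 would be harder to see in it. Antisense transcripts overlap Tgif2, and without a stated strand setting their reads cannot be told apart.

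Ski, the founding member of its corepressor family (ENSMUSG00000029050, chromosome 4, 155154075 to 155222592, minus strand), was the most abundant of the 7 in both genotypes and stood above 93.5% of all genes tested. R206H libraries 1, 2 and 3 had 180.2, 185 and 214 TPM, and wild-type libraries had 153, 148 and 156 TPM. The lowest R206H library was 24.4 TPM above the highest wild-type library. Means were 193 ± 18.1 TPM in R206H and 152 ± 4.0 in wild type (SD), a ratio of 1.27 and a log2 change of 0.34 (SE 0.0734). This change did not pass the threshold over all genes. It passed in 4 of 17 alternative fits, among them limma voom on rebuilt reads, where 8.68% of genes passed, and a filter at TPM 5, where 5.41% did. With single libraries left out, the log2 change of Ski ran from 0.26 without R206H library 3 to 0.38 without R206H library 1.

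Skil, which encodes SnoN (ENSMUSG00000027660, chromosome 3, 31095058 to 31122577, plus strand), had 37.6, 39.2 and 28.8 TPM in R206H libraries 1, 2 and 3, against nearly equal values of 37.3, 36.7 and 37.5 TPM in wild type. The R206H libraries thus lay on both sides of wild type, with library 3 alone low. Means were 35.2 ± 5.63 TPM in R206H and 37.2 ± 0.409 in wild type (SD), and the log2 change of -0.09 (SE 0.116) turned to 0.05 without R206H library 3. R206H library 3 had the highest Ski and the lowest Skil, Smurf1 and Smurf2 values of all 6 libraries.

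Smurf1, a HECT-type ubiquitin ligase first described through Smad1 and Smad5 (ENSMUSG00000038780, chromosome 5, 144876495 to 144965847, minus strand), had 76.6, 73.6 and 68.6 TPM in R206H libraries 1, 2 and 3. The wild-type libraries had 98.3, 88.3 and 89.9 TPM, all higher, with a gap of 11.6 TPM between the groups. Means were 72.9 ± 4.04 TPM in R206H and 92.1 ± 5.39 in wild type (SD), a ratio of 0.792 and a log2 change of -0.33 (SE 0.0680). It did not pass the threshold over all genes and passed in 3 of 17 alternative fits. These were the filter at TPM 5, voom and library weights, where 5.41%, 8.68% and 12.9% of genes tested passed.

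Smurf2, its close relative with a wider range of SMAD and receptor substrates (ENSMUSG00000018363, chromosome 11, 106820066 to 106920715, minus strand), had 53.8, 51.4 and 43.6 TPM in R206H libraries 1, 2 and 3, against 62.0, 58.4 and 60.4 TPM in wild type. The groups did not overlap, by 4.59 TPM. Means were 49.6 ± 5.35 TPM in R206H and 60.2 ± 1.80 in wild type (SD), a ratio of 0.823 and a log2 change of -0.28 (SE 0.0863). It did not pass the threshold, nor in any of the 17 alternative fits. With single libraries left out, its log2 change ran from -0.34 without R206H library 1 to -0.19 without R206H library 3. Smurf1 and Smurf2 together had 112 to 130.4 TPM in R206H libraries and 147 to 160.2 TPM in wild-type libraries.

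Pmepa1 (ENSMUSG00000038400, chromosome 2, 173224458 to 173276533, minus strand), a transmembrane protein that binds receptor SMADs and ligases of the Nedd4 family, had 118, 122 and 118 TPM in R206H libraries 1, 2 and 3. Wild-type libraries had 108, 103 and 89.4 TPM. All R206H values were higher, by a gap of 9.94 TPM, and they spread less than the wild-type values, with a coefficient of variation of 1.88% against 9.42%. Means were 119 ± 2.24 TPM in R206H and 99.9 ± 9.41 in wild type (SD), a ratio of 1.19 and a log2 change of 0.26 (SE 0.0755). The change did not pass the threshold over all genes. It passed in 1 of 17 alternative fits, that with library weights, where 12.9% of all genes tested passed. The log2 change ran from 0.18 without wild-type library 3 to 0.31 without wild-type library 1.

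**Figure D2:**
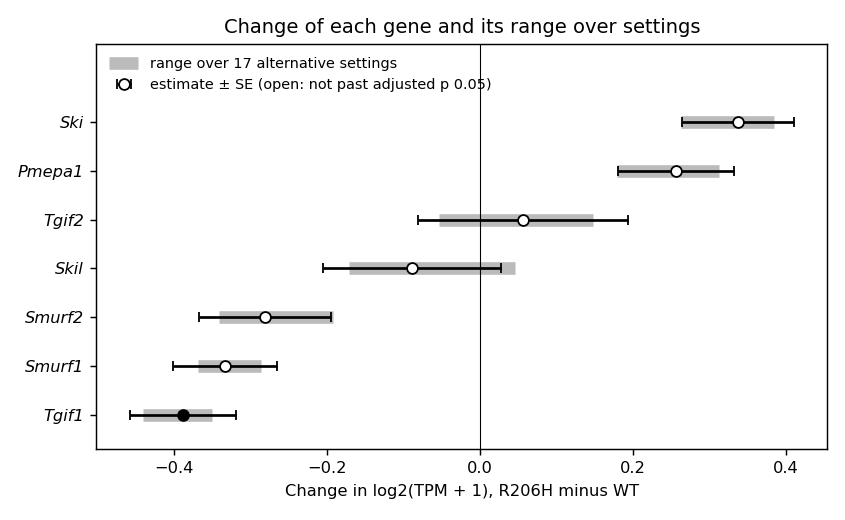
Change in log2(TPM + 1), R206H minus WT (horizontal axis), for each gene, with points and bars for estimate ± SE and grey bands for the range over 17 alternative settings. The filled point, Tgif1, is past an adjusted p of 0.05 over all genes, and the bands of Tgif2 and Skil alone cross 0.

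Ordered by level, the genes ran Ski, Pmepa1, Smurf1, Smurf2, Skil, Tgif1 and Tgif2 in R206H, with means of 193, 119, 72.9, 49.6, 35.2, 31.0 and 7.42 TPM. In wild type the order was Ski, Pmepa1, Smurf1, Smurf2, Tgif1, Skil and Tgif2, with 152, 99.9, 92.1, 60.2, 41.0, 37.2 and 7.14 TPM. Skil and Tgif1 exchanged places, and the other 5 genes kept theirs. In R206H the library ranges of neighbours overlapped only for Skil and Tgif1. In wild type they overlapped only for Pmepa1 and Smurf1, which were separate in R206H. The gene with the lowest level lay above 33.4% of all genes tested, and the median gene tested had 16.4 TPM.

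Set against its relative in the same library, Tgif1 was 4.28, 4.49 and 3.83 times Tgif2 in R206H libraries 1, 2 and 3 and 5.16, 5.21 and 7.17 times in wild type. These groups did not overlap, and Tgif1 made up 80.7% of the summed Tgif level in R206H and 85.1% in wild type. Ski was 4.79, 4.73 and 7.43 times Skil in R206H libraries and 4.10, 4.03 and 4.16 times in wild type, again with no overlap, and R206H library 3 stood far above the other two. Smurf1 was 1.42, 1.43 and 1.58 times Smurf2 in R206H libraries and 1.59, 1.51 and 1.49 times in wild type. Here the groups overlapped, and the balance of the Smurf genes was 59.6% Smurf1 in R206H and 60.5% in wild type. These ratios come from the same comparison the genes were chosen on and carry no test. Their coding sequences matched at 72.6% of aligned bases for Smurf1 and Smurf2, 67.7% for Tgif1 and Tgif2 and 59.6% for Ski and Skil, and the longest exact run shared by any transcripts of a pair was 18, 17 and 13 bases in the same order, against 150 base reads.

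**Figure D3:**
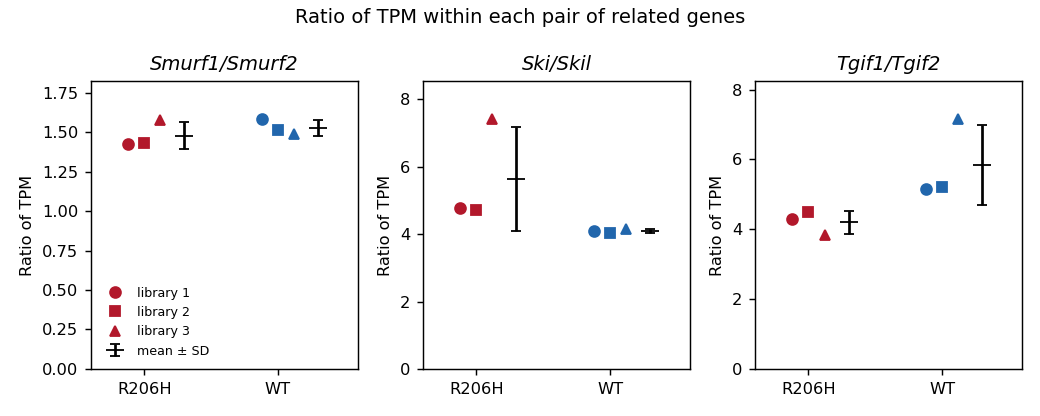
Ratio of TPM (vertical axes, from 0) of Smurf1 to Smurf2, Ski to Skil and Tgif1 to Tgif2 in R206H and WT libraries. Symbols mark libraries, and bars show mean ± SD (n = 3). The Smurf ratio overlaps between genotypes, at 1.48 ± 0.0850 in R206H and 1.53 ± 0.0509 in WT, and the Ski ratio reaches 7.43 in R206H library 3.

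The bases just upstream of the start are shown for Tgif1 and both Smurf genes, since these are the 3 genes whose R206H levels all lay below wild type. Each is the 250 bases before a RefSeq start (GRCm38.p6), 5′ to 3′ on the gene's own strand, and capitals mark CAGAC or its reverse complement GTCTG, the short element that SMAD proteins bind. For Tgif1, which has 5 RefSeq starts, the one shown is the most upstream that equals a coding transcript start in GENCODE. The Smurf1 start lies 9 bases from the nearest such GENCODE start, and 17 bases of its window overlap an annotated Smurf1 exon.
Tgif1 (chr17:70851735-70851984, minus strand): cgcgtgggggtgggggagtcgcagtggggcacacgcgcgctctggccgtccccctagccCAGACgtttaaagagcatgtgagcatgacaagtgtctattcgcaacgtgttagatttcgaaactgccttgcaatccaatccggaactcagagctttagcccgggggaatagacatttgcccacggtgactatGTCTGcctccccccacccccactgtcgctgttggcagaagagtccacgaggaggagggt
Smurf1 (chr5:144965831-144966080, minus strand): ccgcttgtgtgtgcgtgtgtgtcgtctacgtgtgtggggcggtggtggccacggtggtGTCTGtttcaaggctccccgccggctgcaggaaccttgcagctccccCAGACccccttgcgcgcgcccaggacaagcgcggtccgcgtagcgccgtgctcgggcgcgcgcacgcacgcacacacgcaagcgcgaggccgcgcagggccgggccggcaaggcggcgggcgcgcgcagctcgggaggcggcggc
Smurf2 (chr11:106920716-106920965, minus strand): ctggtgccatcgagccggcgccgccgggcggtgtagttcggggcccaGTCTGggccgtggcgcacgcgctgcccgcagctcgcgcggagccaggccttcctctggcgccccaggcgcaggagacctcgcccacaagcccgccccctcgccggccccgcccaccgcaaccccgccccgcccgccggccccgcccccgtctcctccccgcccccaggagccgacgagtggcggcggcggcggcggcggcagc
The Tgif1 window held 2 matches, 191 and 59 bases before the start. Smurf1 held 2 matches, at 192 and 145 bases, and Smurf2 held 1, at 203 bases. Across 32851 promoter windows of the same length, 42.2% held at least 1 match and 11.7% held more than 1, so the element is common. Of the 5 Tgif1 windows, 3 held it, and those of Tgif2 and Ski did not. The palindrome GTCTAGAC, 2 elements joined, was in none of the windows of these genes and in 0.167% of all windows. The GC-rich element GGCGCC, which is its own reverse complement and is bound by SMADs in BMP target genes, occurred 2 times in the Smurf2 window and 1 time in that of Ski, against 9.59% of all windows with any. These windows were also GC-rich, at 82% for Smurf2 and 87.6% for Ski, against a median of 52.4%. RefSeq promoter entries were found for 5 of 7 genes, without Skil and Pmepa1, so Ski was the only higher gene looked at. A match is a description of the letters, not of binding.

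Partners, relatives, substrates and targets of the 7 genes were read from 12 lists with 123 genes tested in all. Of these, 8 were higher and 1 lower in R206H past an adjusted limma p of 0.05, beside 2.04% of all genes tested (1.26% higher and 0.79% lower). All 8 higher and the 1 lower gene sat among SMADs, direct targets and Smurf substrates. No gene passed among receptors, corepressor partners, coactivators, homeobox relatives, Ski relatives, other Nedd4-family ligases, other ubiquitin enzymes or other inhibitors. At an unadjusted p under 0.05 there were 55 of the 123 genes (44.7%), beside 26.1% of all genes tested. Among the 8 lists with no gene past the adjusted threshold, the share was highest in the inhibitors (6 of 10) and the homeobox relatives (8 of 14), and 0 of 2 Ski relatives reached it. No list call held without R206H library 2, R206H library 3, wild-type library 2 or wild-type library 3, each of which left 0. Like the 7 genes, the lists were chosen with earlier results of these data known. Nothing is therefore read from their counts and shares, here or below.

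**Figure D4:**
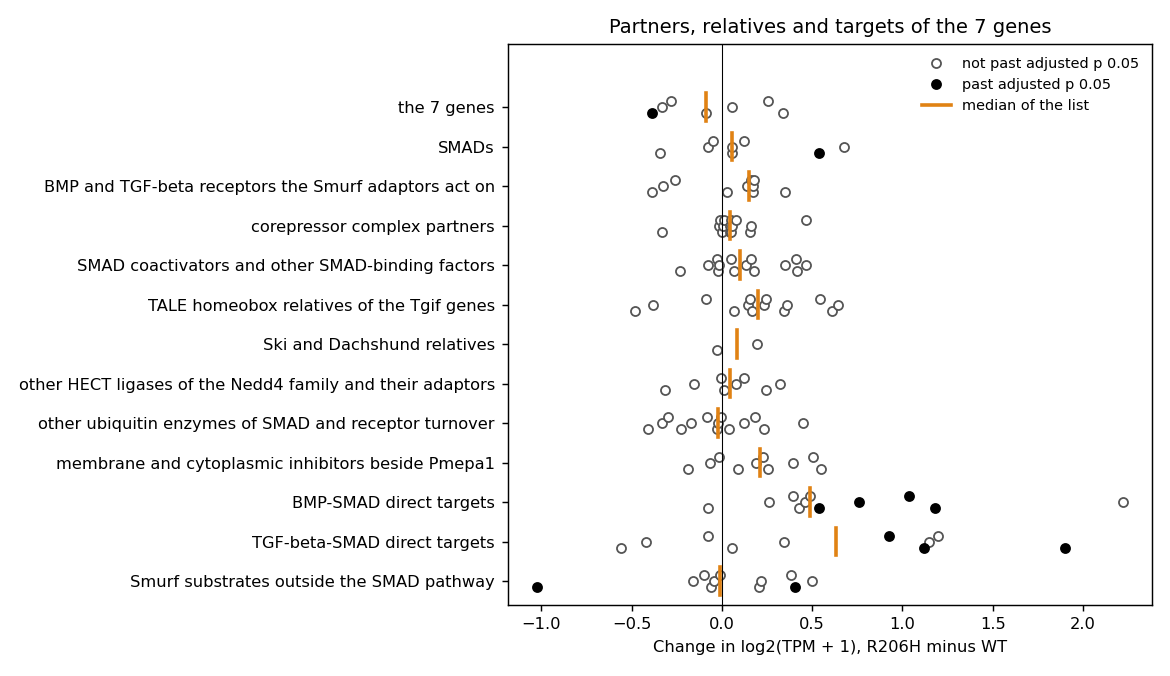
Change in log2(TPM + 1), R206H minus WT (horizontal axis), of each gene tested in the lists of partners, relatives and targets, with the 7 genes in the top row. Filled points passed an adjusted p of 0.05 over all genes, orange bars are list medians, and filled points appear only in the rows of the 7 genes, SMADs, BMP-SMAD targets, TGF-beta-SMAD targets and Smurf substrates.

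Among 8 SMADs, 1 was higher. Smad6, the BMP-induced inhibitory SMAD that works with Smurf1, had 91.4, 88.1 and 93.7 TPM in R206H libraries 1, 2 and 3 against 55.1, 62.7 and 70.3 TPM in wild type. Its log2 change was 0.54 (SE 0.0907, adjusted p = 0.0476). Smad7, the other carrier of the Smurf ligases, overlapped between the genotypes and averaged 79.0 ± 7.66 TPM in R206H libraries and 83.5 ± 9.27 TPM in wild-type libraries (SD, log2 change -0.08, adjusted p = 0.674). Smad9 had a log2 change of 0.67, with all R206H libraries above wild type, and Smad3 one of -0.34, with all R206H libraries below, and neither passed (adjusted p = 0.0865 and 0.0993). The Smurf1 substrates Smad1 and Smad5 had log2 changes of -0.05 and 0.12, and the remaining Smad2 and Smad4 both had 0.06, and none of these passed. The list median was 0.06.

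Of 11 direct targets of BMP-activated SMADs, 4 were higher, none was lower and 7 did not pass, with a median log2 change of 0.49. The homeobox gene Msx2 had 36.0 ± 5.24 TPM in R206H and 15.3 ± 1.5 in wild type (SD, log2 change 1.18, SE 0.121, adjusted p = 0.0272). Id3, whose product blocks DNA binding by helix-loop-helix factors, had a log2 change of 0.76 (adjusted p = 0.0402), and the helix-loop-helix gene Atoh8 one of 1.04 (adjusted p = 0.0462). Smad6 was the fourth. Of 10 direct targets of TGF-beta-activated SMADs, 3 were higher and 7 did not pass, with a median of 0.63. These were the transcription factor gene Snai1, at 1.92 times wild type (adjusted p = 0.0362), the matrix gene Tgfbi, at 3.95 times (adjusted p = 0.0417), and the collagen-binding integrin gene Itga11, at 2.21 times (adjusted p = 0.0454). Skil and Pmepa1, which TGF-beta also induces, had ratios of 0.947 and 1.19. In the same libraries the marker lists had median log2 changes of 0.69 (fibroblast), -1.55 (epithelial), 0.74 (neuronal), -0.99 (neural crest and glial) and -0.06 (mesothelial), and their part in these counts was not tested.

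Among 11 genes of proteins described as Smurf substrates and close relatives of those proteins, 1 was higher and 1 lower. Trib2, a pseudokinase gene, had 48.3, 49.7 and 53.0 TPM in R206H libraries 1, 2 and 3 against 38.2, 39.6 and 35.8 TPM in wild type (log2 change 0.40, SE 0.0676, adjusted p = 0.0476). Pard6b, a relative of the polarity gene Pard6a, had 11.8, 10.0 and 9.83 TPM in R206H and 20.8, 24.0 and 22.5 TPM in wild type (log2 change -1.02, SE 0.101, adjusted p = 0.0272). Epithelial markers were lower in the same R206H libraries, 2 of the 9 tested past the threshold, and their part in the Pard6b value was not tested. The Smurf substrate gene Pard6a itself had a log2 change of 0.50 that did not pass (adjusted p = 0.0828).

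Within the family of 9 Nedd4-type HECT ligases, Smurf1 and Smurf2 took places 2 and 3 by level in both genotypes, behind Nedd4. Nedd4 had 613 ± 33.0 TPM in R206H and 516 ± 27.9 in wild type (SD, log2 change 0.25, adjusted p = 0.0801), the opposite sign to both Smurf genes. Smurf1 made up 8.81% of the summed family level in R206H and 12.1% in wild type, and Smurf2 5.98% and 7.92%. Nedd4l, which like the Smurf ligases acts on SMADs, had a log2 change of -0.32 that did not pass (adjusted p = 0.126). Of 14 other ubiquitin enzymes none passed. The deubiquitinase genes Uchl5 and Cyld had log2 changes of -0.33 and -0.41 (adjusted p = 0.0736 and 0.0875).

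None of 15 corepressor complex partners passed. Sap18, a subunit of the Sin3 deacetylase complex, had a log2 change of -0.33 (adjusted p = 0.0593), and Tbl1xr1, a subunit of the NCoR complex, one of 0.47 (adjusted p = 0.0779). Of 14 coactivators and other SMAD-binding factors tested, Runx2, the osteoblast regulator and a Smurf substrate, had a log2 change of 0.41, and the BMP-responsive zinc finger gene Zfp423 one of 0.47, and neither passed (adjusted p = 0.0887 and 0.105). Of 14 homeobox relatives of the Tgif genes, the Iroquois gene Irx5 and the Pbx gene Pbx3 had log2 changes of 0.61 and 0.36 (adjusted p = 0.0819 and 0.101), opposite in sign to Tgif1. At an unadjusted limma p under 0.05, 6 of the 14 were higher and 2 lower. The lower ones, Pbx4 and Irx2, had log2 changes of -0.48 and -0.38, the same sign as Tgif1. The Ski relatives Skida1 and Dach1 had log2 changes of 0.19 and -0.03 (adjusted p = 0.338 and 0.924).

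Other inhibitors beside Pmepa1 had a median log2 change of 0.21, and none of 10 passed. The phosphatase genes Ctdsp2, whose product acts on SMADs, and Ppm1l had log2 changes of 0.50 and 0.55 (adjusted p = 0.0596 and 0.0887). Ldlrad4, the closest relative of Pmepa1, had 37.1, 38.1 and 43.7 TPM in R206H libraries 1, 2 and 3 and 33.8, 35.2 and 32.0 TPM in wild type, a ratio of 1.18 beside 1.19 for Pmepa1 (log2 change 0.23, adjusted p = 0.146). Among 10 receptors, the BMP receptor gene Bmpr1a had a log2 change of 0.18 (adjusted p = 0.145), and Acvr1 one of 0.35 (adjusted p = 0.0511).

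Genes most like each of the 7 were ranked by Pearson r of log2(TPM + 1) over the 6 libraries, among 10153 genes with a mean of at least 5 TPM. The points share their libraries and genotypes, so these r are descriptions. For Tgif1 these were Endod1, the Hsp90 cochaperone gene Ahsa1 and Gpr137b, with r of 0.995, 0.994 and 0.992. For Smurf1 they were Dzip1l, the deubiquitinase gene Usp36 and Cep63, with r of 0.998, 0.996 and 0.994, and for Smurf2 Uhmk1, Usp39 and Cipc, with r of 0.995, 0.995 and 0.994. Ski was most like Tnrc18, Ppm1m and Adgrl1, with r of 0.999, 0.996 and 0.996, and Pmepa1 most like the coatomer gene Copb1 and Elp3, with r of 0.998 and 0.991. Among the overlapping genes, Skil was most like the m6A reader gene Ythdf1, Dhx29 and Prkaa1, with r of 0.991, 0.987 and 0.977, and Tgif2 most like Dnajc16, Tbc1d16 and Zcchc3, with r of 0.989, 0.981 and 0.967. An r over 0.95 was common with so few libraries: 388 genes reached it for Ski, 300 for Smurf2, 173 for Smurf1, 137 for Tgif1, 96 for Pmepa1, 19 for Skil and 13 for Tgif2.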

How the data were processed

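The authors deposited TPM values per gene and library. The submitters' processing notes name GRCm38 and mm10 as builds, and DESeq2, featureCounts, STAR, Subread and Trimmomatic as tools, without versions or roles. For gene lengths, the annotation and the counting strand the labels give no value. Per the labels' protocols, ribosomal RNA was depleted and 150 base paired reads were made, so TPM also holds unspliced RNA. TPM is a share of each library.

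Depth was estimated by rebuilding reads from TPM and GENCODE M21 exon lengths. Of non-zero values under 100 reads, 91.1% to 91.5% came out whole within 0.05. No pair of libraries was identical.

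The test was limma 3.58.1 (R 4.3.3; lmFit, eBayes with trend, two-sided, Benjamini-Hochberg at 0.05) of log2(TPM + 1), for genes reaching TPM 1 in 3 libraries, checked on simulated data. In the simulated data limma recovered 19 of 50 genes changed 1.5-fold, 41 of 50 changed 2-fold and 50 of 50 changed 4-fold. It also called 15 unchanged genes. The 7 genes this report is about all changed less than 1.5-fold, so failing to pass does not show that such a gene was unchanged. The other software was Python 3.11.15. Sequences came from RefSeq tables (GRCm38.p6). The members and lists were chosen with earlier results of these data known. From each list, up to 3 genes past the threshold with the smallest p are named, or 2 where none passed. Pard6a, Ldlrad4, Pbx4, Irx2 and all SMADs but Smad6 were named outside that rule, after their values were seen. For likeness, 3 genes per member are named, without unnamed models and pseudogenes, and 1 of those for Pmepa1 is not reported here.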

Additional observations from a re-analysis of the deposited data

How the results depend on the processing

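With the threshold unchanged, 1 of the 7 genes passed in the fit described above. None passed with a pseudocount of 0.1 or 5, with no filter, without the mean-variance trend or with a replicate block (0 in each), 3 passed with a filter at TPM 5 and 3 with limma voom on rebuilt reads (Tgif1, Ski and Smurf1 in both), and 4 with library weights. Over all genes the 303 calls became 129 with a pseudocount of 0.1, 2 with no filter, 587 with a filter at TPM 5, 200 with quantile normalization, 27 without the trend, 1906 with library weights, 1284 with voom and 0 with the replicate block. The 9 calls in the lists became 0 with no filter, 14 with a filter at TPM 5, 1 without the trend, 27 with library weights, 24 with voom and 0 with the block. Leaving out single libraries gave 0 to 2 of the 7 genes, 0 to 729 of all genes and 0 to 13 calls in the lists. Of all genes, 729 passed limma without R206H library 1, 4 without wild-type library 2, 1 without wild-type library 3, and 0 without R206H library 2 or 3, where 3048 and 2765 had an unadjusted p under 0.05. Under the block 3301 had. The cause of these changes was not tested. Directions held in all 17 alternatives for Tgif1, Ski, Smurf1, Smurf2 and Pmepa1. With single libraries left out, Tgif2 ran from -0.0535 (without wild-type library 3, reversed) to 0.147, and Skil from -0.171 to 0.0462 (without R206H library 3, reversed). The adjusted p of Tgif1 ran from 0.0190 to 0.170 over these fits. Same-numbered libraries did not deviate together (r of 0.0180, 0.0599 and -0.0283 for numbers 1, 2 and 3), so the numbers are not taken as pairs. The order of levels kept 5 genes in the same place in both genotypes with any library left out, an alternative added after the data were seen. Depth limits Tgif2 most, with 124 reads in its lowest library.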
